A study of Canis lupus familiaris with 20 samples.

Results

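LARP6 and the fibrillar collagen genes COL1A1, COL1A2, COL3A1 and COL5A2 were followed in skeletal muscle of dystrophic and healthy dogs, dog by dog. Their probes were taken as all probes that carry one of these 5 names on a canine Agilent array. These are 5 of the 10267 gene names on the array and 7 of its 42034 probes, 2 for LARP6, 2 for COL5A2 and 1 for each of the others. The genes were chosen by earlier results of the difference of affected and normal dogs in these same data, so that difference is described here without a test. All 7 probes passed the filter on dim spots and were among the 16008 probes tested, COL1A1 only through the dogs in which it was highest.

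The study used 10 dogs, all aged 2 years: 2 labelled DMD escaper, 4 labelled DMD affected and 4 labelled normal. DMD is Duchenne muscular dystrophy, caused by loss of dystrophin, a protein that anchors the muscle fibre's skeleton to its membrane, and the name escaper stands for dystrophic dogs with mild disease. The labels give no treatment, no mutation and no breed, and name the tissue only as muscle. RNA of each dog was hybridised on 2 arrays of opposite dye against RNA of 1 normal individual, the common reference, so every level below is a log2 ratio of dog over reference.

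Fibrillar collagens are the rope-like proteins of connective tissue, built from 3 chains wound into a triple helix. COL1A1 and COL1A2 encode the alpha-1 and alpha-2 chains of type I collagen, the main collagen of scar, COL3A1 encodes the chain of type III collagen, and COL5A2 encodes the alpha-2 chain of type V collagen, which starts and limits fibril growth. LARP6 is a La-related RNA-binding protein that, in human cells, binds a stem-loop near the start of type I and type III collagen messenger RNAs and helps their translation at the endoplasmic reticulum. Build-up of these collagens between fibres is the fibrosis of dystrophic muscle.

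Each level comes from a single 60-base probe, and 3 of the probe sequences are given because they show which stretch of the messenger RNA stands behind a gene that results below turn on. They are read 5′ to 3′ from the array files, all in lower case because no part is marked, with coordinates as those files give them. The genome build of the coordinates is not given in the sources used here, and the coordinates of all 3 run in descending order in the files.
LARP6, dimmer probe, chr30:37521009-37521068: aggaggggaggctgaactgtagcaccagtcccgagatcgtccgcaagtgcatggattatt
COL1A1, chr9:29521052-29521111: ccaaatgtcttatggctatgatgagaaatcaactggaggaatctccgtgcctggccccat
COL5A2, dimmer probe, chr36:33569702-33570431: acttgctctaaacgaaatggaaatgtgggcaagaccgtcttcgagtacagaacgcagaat

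The COL5A2 probe has 60 bases but spans 730 bases of the genome, and it therefore crosses an intron. Its brighter partner lies at chr36:33568047-33568106, and the brighter LARP6 probe at chr30:37520585-37520644, 424 bases from the dimmer one. The COL1A2 probe lies at chr14:22866589-22866648 and the COL3A1 probe at chr36:33554988-33555047. COL3A1 and COL5A2 are neighbours on chromosome 36 with 0 genes starting between them in the dog gene table, and the COL3A1 probe starts 13118 bases from the brighter COL5A2 probe.

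Before the genes, 2 dogs have to be set apart. Over the tested probes, pairs of normal dogs correlated with r from 0.782 to 0.856, whereas no dog resembled affected 1 by more than r = −0.010 or escaper 2 by more than r = 0.42. Genes are not independent replicates, and all dogs share the reference. The members' differences and the medians of the gene lists are given with and without them. Each of the 5 slides held 2 dogs of 1 group, so slides lie within groups in every comparison. Of the 11 muscle fibre markers listed, 7 had a probe, and each of these had a probe well above background on all 20 arrays, including the brightest, the myosin light chain MYL1 and the troponin TNNT3. The mean log2 ratio of the 6 tested fibre markers was −1.98 in escaper 2 and 0.77 in escaper 1, from −1.40 in affected 1 to 0.76 in affected 2 among affected dogs, and between 0.34 and 0.54 in normal dogs. In whole muscle, fewer cells of a type and less RNA per cell cannot be told apart.

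LARP6 was the member that separated dystrophic from normal dogs most evenly. At the brighter probe its level was −1.38 and 0.06 in escapers 1 and 2. It was −0.65, −0.37, −0.47 and −0.51 in affected dogs 1 to 4, against −2.33, −2.08, −2.62 and −2.30 in normal dogs 1 to 4. All 4 affected dogs lay within 0.28 of each other and above all 4 normal dogs, and escaper 1 fell between these groups while escaper 2 was the highest dog of all. The affected mean was −0.50 ± 0.11 and the normal mean −2.33 ± 0.22 (SD, n = 4 each), a difference of 1.83 on the log2 scale (SE 0.27) or 3.56-fold.

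At the dimmer LARP6 probe every affected dog was again above every normal dog, and escapers and affected dogs had almost the same mean. Its level was −0.89 and 0.16 in escapers 1 and 2, and −0.24, −0.16, −0.77 and −0.38 in affected dogs 1 to 4. It was −1.99, −1.91, −1.80 and −1.75 in normal dogs 1 to 4. Affected dogs averaged −0.39 ± 0.27 and normal dogs −1.86 ± 0.11 (SD, n = 4 each), a difference of 1.48 (SE 0.23) or 2.78-fold. Neither LARP6 probe was limited by brightness: 20 of 20 arrays read each of them well above background, and 0 read either as saturated. Over the 10 dogs they correlated with r = 0.96, a description of 2 probes of 1 gene on the same arrays.

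COL1A2, the brightest member, spread far more within the dystrophic groups than LARP6 did. Its level was 0.35 and 2.72 in escapers 1 and 2. It was −2.92, −0.02, 0.66 and 1.66 in affected dogs 1 to 4, against −1.74, −2.02, −1.43 and −2.38 in normal dogs 1 to 4. Affected 1 was the lowest of the 10 dogs, the other 3 affected dogs and both escapers lay above every normal dog, and escaper 2 was the highest. Means were −0.15 ± 1.97 in affected and −1.89 ± 0.40 in normal dogs (SD, n = 4 each), a difference of 1.74 (SE 0.88) that was 2.66 (SE 0.57) without affected 1. The 2 arrays of a dog differed by at most 0.24 for this probe, beside a range of 4.58 among affected dogs.

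COL3A1 also spread widely within the dystrophic groups. Its level was 1.29 and 3.75 in escapers 1 and 2. It was −2.26, 0.72, 1.18 and 3.12 in affected dogs 1 to 4, against −1.20, −0.65, −1.07 and −1.84 in normal dogs 1 to 4. Affected 1 had the lowest value, although neither it nor normal 1 and normal 4 were read above background and these 3 dogs have no order, and escaper 2 lay above every other dog. Means were 0.69 ± 2.22 in affected and −1.19 ± 0.50 in normal dogs (SD, n = 4 each), a difference of 1.88 (SE 0.99) that was 2.86 without affected 1. Its signal stood well above background on 4 of 4 escaper arrays, 6 of 8 affected arrays and 3 of 8 normal arrays, so the low end of its scale is loosely measured and affected 1 has only a bound.

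COL5A2 spread less among affected dogs than COL1A2 and COL3A1 did, at both probes. At the brighter probe its level was −0.51 and 2.47 in escapers 1 and 2. It was −1.94, −0.65, 0.10 and 1.05 in affected dogs 1 to 4, against −2.0001, −1.99, −2.08 and −2.86 in normal dogs 1 to 4. Affected 1 was next to the highest normal dog, whereas affected 4 and escaper 2 were far above the normal range. The means were −0.36 ± 1.26 in affected and −2.23 ± 0.42 in normal dogs (SD, n = 4 each), which differed by 1.87 (SE 0.72) with all dogs and by 2.40 without affected 1. The intron-spanning probe had −0.999 and 2.25 in escapers 1 and 2, −1.003, −0.64, −0.22 and 0.42 in affected dogs 1 to 4, and −1.21, −1.17, −1.31 and −1.77 in normal dogs 1 to 4. It was well above background on 18 of 20 arrays, but on neither array of normal 2. It differed by 1.001 between affected and normal dogs (SE 0.59), less than the brighter probe did, and the 2 probes ordered the 10 dogs almost alike (Spearman's rho 0.99, a description).

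COL1A1 could hardly be read at the probe that bears its name. The level was −0.08 and 0.90 in escapers 1 and 2. It was 0.01, 0.04, 0.44 and 0.58 in affected dogs 1 to 4, against −0.17, −0.11, −0.03 and −0.07 in normal dogs 1 to 4. Only the 4 arrays of escaper 2 and affected 4 read it well above background, out of 20, and 0 of 8 normal arrays did. The probe passed the filter on dim spots through these dogs alone, where it was highest, so its test results give no support. As log2 ratios of dog over reference, COL1A1 differed from normal dogs by 0.50 in escapers and by 0.37 in affected dogs (SE 0.22). In the dog's channel alone, without the reference, the mean COL1A1 signal was 1.42-fold that of normal dogs in escapers and 1.19-fold in affected dogs. Both measures take all dogs of a group, read above background or not, with both dye orientations of every dog averaged. Raising normal signals to at least the lowest signal well above background left the normal mean unchanged, so the signal ratios are no lower bounds. The escaper ratio rests on escaper 2, because escaper 1 was within the range of normal dogs.

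A brighter probe with no gene name but a description as collagen alpha-1(I) chain lies 13982 bases from the named COL1A1 probe on chromosome 9. It was chosen after its values were seen and is no member. It had −0.13 and 3.34 in escapers 1 and 2, −2.67, −0.24, 0.35 and 2.17 in affected dogs 1 to 4, and −2.76, −2.21, −2.40 and −3.55 in normal dogs 1 to 4. As at COL1A2, affected 1 lay apart from the other affected dogs, here among the normal dogs, and escaper 2 was on top. Of 20 arrays, 19 read it well above background. A probe described as alpha2(I) collagen, 17493 bases from the named COL1A2 probe on chromosome 14, had 0.60 and 1.82 in escapers, −0.70, 0.37, 0.29 and 0.82 in affected dogs, and between −0.79 and −0.46 in normal dogs, with 10 of 20 arrays well above background.

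**Figure D1:**
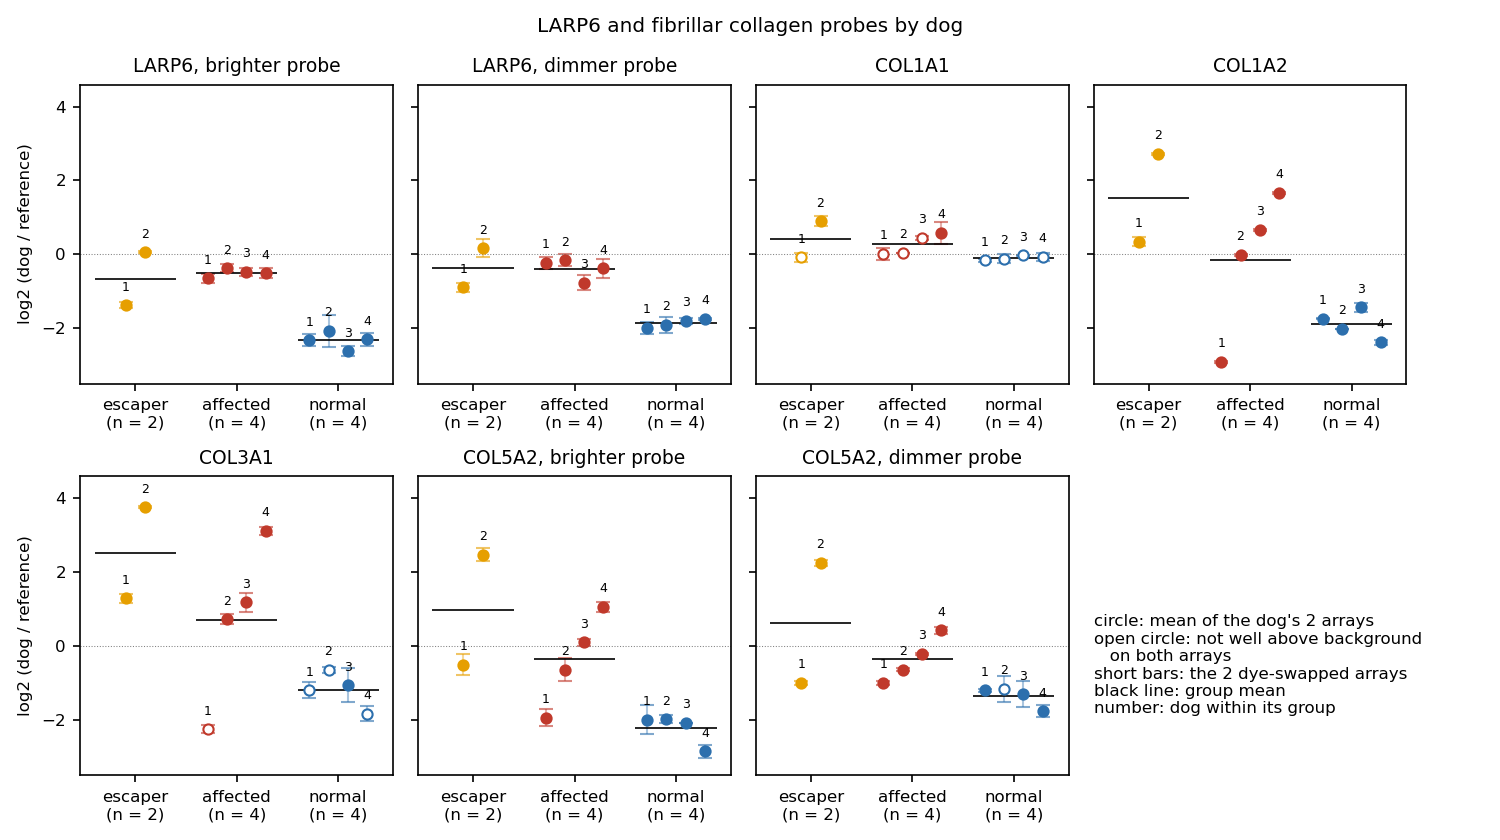
Log2 ratio of dog over reference for the 7 member probes, with escaper dogs left (n = 2), affected dogs in the middle (n = 4) and normal dogs right (n = 4); circles are dogs, open where a dog's 2 arrays were not both well above background, short bars are its 2 dye-swapped arrays and black lines are group means. LARP6 stands higher in all affected dogs than in any normal dog, while COL1A2 of affected 1 is at −2.92, below the normal dogs, and its open COL3A1 circle at −2.26 was not above background.

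Counted over probes, all of the affected dogs lay above all of the normal dogs at 5 of the 7 member probes, both of LARP6, both of COL5A2 and COL1A1. At COL1A1 only affected 4 among these dogs was read well above background, so the order of the others is not measured there. At the brighter COL5A2 probe affected 1 at −1.94 stood just above normal 2 at −1.99, and the 2 arrays of affected 1 differed by 0.48. At the dimmer COL5A2 probe normal 2, the highest normal dog, was not read above background on either array. The separation at both COL5A2 probes is therefore loosely measured. The groups overlapped at COL1A2 and COL3A1. The same separation was found at 5.28% of all tested probes, and nothing is read from the members' count because this difference chose them. Over all tested probes, 0.0187% passed an adjusted p of 0.05 in limma for affected against normal dogs.

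LARP6 and some collagen chains stood differently among the dogs in affected 1 and in escaper 1. Affected 1 had a LARP6 level of −0.65, close to −0.37, −0.47 and −0.51 in the other affected dogs, with COL1A2 at −2.92, the lowest of all dogs, and COL3A1 not above background. Its COL5A2 value was just above that of every normal dog at both probes, at −1.94 and −1.003. At the brighter probe its 2 arrays differed by 0.48, more than its distance from normal 2 at −1.99, so that order is not firmly measured. Escaper 1 showed the opposite pairing, a LARP6 level of −1.38 below every affected dog beside a COL1A2 level of 0.35 and a COL3A1 level of 1.29, within the range of affected dogs. LARP6 correlated over the 10 dogs with COL1A2 at r = 0.69, with COL3A1 at r = 0.68 and with COL5A2 at r = 0.80. COL1A2 and COL3A1 correlated at r = 0.99, COL1A2 and COL5A2 at r = 0.96. These values describe brightest probes on shared arrays with a shared reference, and groups that differ raise them.

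**Figure D2:**
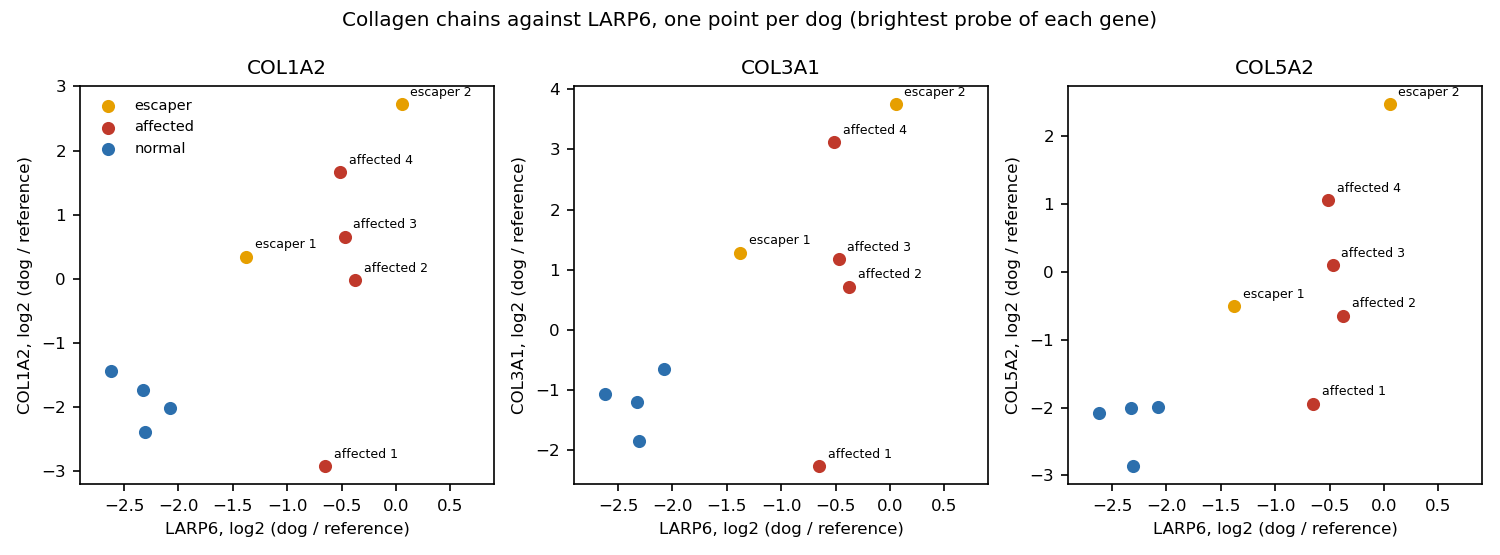
Log2 ratio of dog over reference of COL1A2, COL3A1 and COL5A2 (vertical axes) against LARP6 (horizontal axes) at the brightest probe of each gene, 1 point per dog, with escapers in orange, affected dogs in red and normal dogs in blue. Affected 1 sits at the LARP6 level of its group but near or below the collagen levels of normal dogs, and escaper 2 is highest on both axes.

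Escapers were then compared with normal dogs. The normal dogs also stood in the difference that chose the genes, and escaper results were known by then, so the p-values here are no independent support. The 2 escapers shared 1 slide, so slide and escaper group cannot be told apart. LARP6 was 1.67 higher in escapers at the brighter probe, with means of −0.66 ± 1.01 (SD, n = 2) in escapers and −2.33 ± 0.22 (SD, n = 4) in normal dogs and a 95% interval of the difference from 0.93 to 2.41. Its unadjusted p was 0.000536 and its adjusted p 0.179 in limma over all tested probes. The dimmer LARP6 probe gave 1.496 (interval 0.87 to 2.12, limma adjusted p = 0.179), so neither probe passed.

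COL1A2, COL3A1 and COL5A2 differed from normal dogs by more than LARP6 did, with wider intervals. COL1A2 was 3.43 higher in escapers (interval 1.01 to 5.85, limma adjusted p = 0.201), with means of 1.54 ± 1.68 (SD, n = 2) in escapers and −1.89 ± 0.40 (SD, n = 4) in normal dogs. COL3A1 was 3.71 higher (interval 1.01 to 6.41, limma adjusted p = 0.202), measured against normal dogs with only 3 of 8 arrays well above background, and COL5A2 was 3.21 higher at its brighter probe (interval 1.25 to 5.18, limma adjusted p = 0.189). The intron-spanning COL5A2 probe differed by 1.99 (limma adjusted p = 0.218). COL1A1 was 0.50 higher (interval −0.10 to 1.10, limma adjusted p = 0.333), over values mostly not above background. Both escapers lay above every normal dog at 6 of the 7 member probes, all but COL1A1, against 14.5% of all tested probes, and the choice of genes favours that direction. No probe of the array passed in this comparison, that is 0%, while 2953 probes had an unadjusted p under 0.05.

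Each escaper weighs heavily in these differences. Without escaper 2, LARP6 differed from normal dogs by 0.95 (limma adjusted p = 0.687), COL1A2 by 2.24, COL3A1 by 2.48 and COL5A2 by 1.72. Without escaper 1 the differences were 2.39 for LARP6 (limma adjusted p = 0.00119), 4.62 for COL1A2, 4.95 for COL3A1 and 4.70 for COL5A2. These fits take the spread of the lone escaper from the other 2 groups. Without affected 1, whose spread enters the shared estimate, the limma adjusted p was 0.0949 for LARP6 and 0.0934 for COL1A2.

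Escapers and affected dogs were compared to ask whether the mild and the typical course differ. LARP6 differed by −0.16 at the brighter probe (interval −0.90 to 0.58, limma adjusted p = 0.928) and by 0.02 at the dimmer one (interval −0.60 to 0.64, limma adjusted p = 0.993). COL1A2 was 1.69 higher in escapers with an interval from −0.73 to 4.11, and COL3A1 1.83 higher with one from −0.87 to 4.53. COL5A2 differed by 1.34 at the brighter probe (interval −0.62 to 3.30) and COL1A1 by 0.14 (interval −0.46 to 0.73). The groups overlapped at all 7 probes, 0 passed, and 0% of all tested probes passed, with 835 at an unadjusted p under 0.05. All these intervals include 0. Those of COL1A2, COL3A1 and COL5A2 reach further up than down, to 4.11, 4.53 and 3.30, and that of the brighter LARP6 probe reaches further down. The data therefore do not show that escapers and affected dogs are alike. Without affected 1 the differences were 0.77 for COL1A2, 0.85 for COL3A1 and 0.81 for COL5A2.

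**Figure D3:**
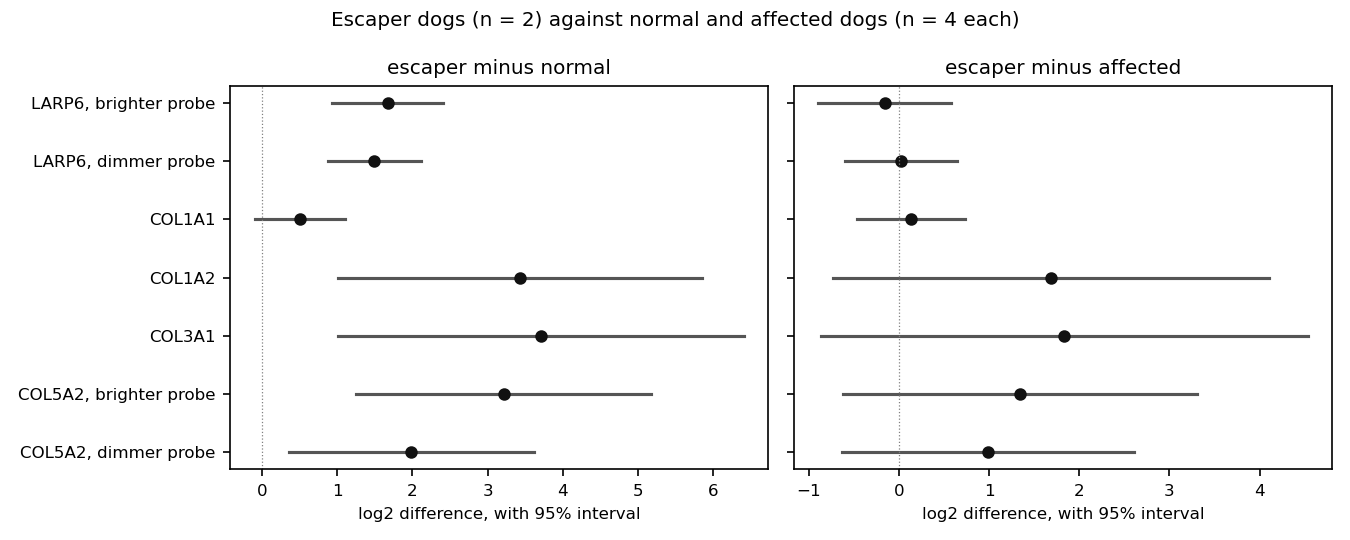
Log2 difference of escapers (n = 2) from normal dogs (left panel) and from affected dogs (right panel, n = 4 each) at the 7 member probes, with points for the difference and lines for its 95% interval. Against normal dogs, where COL1A1 was not read above background, every interval but that of COL1A1 lies above 0 before adjustment over all probes, and against affected dogs every interval includes 0.

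The common reference matters for the size of these ratios. Although it came from a normal individual, its LARP6 signal was 5.04-fold that of the normal dogs at the brighter probe, and its COL1A2 signal 3.71-fold. Only 0.437% of the tested probes had a lower mean ratio in normal dogs than the brighter LARP6 probe, and 0.912% a lower one than COL1A2. Differences between groups of dogs do not depend on the reference level, but a level of 0 for these genes stands for that individual and not for a typical normal dog.

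The other fibrillar chains added little, because few were measurable. Of 11 chains listed, 9 had a probe and 5 were tested, the 4 members and COL5A1, the alpha-1 chain of type V collagen. COL5A1 had 0.36 and 1.53 in escapers 1 and 2, −1.25, −0.20, −0.29 and 0.59 in affected dogs 1 to 4, and from −0.82 to −0.65 in normal dogs. Affected 1 was again the lowest dog and escaper 2 the highest. It differed by 1.69 between escapers and normal dogs (limma adjusted p = 0.189) and by 0.46 between affected and normal dogs (limma adjusted p = 0.621). Between escapers and affected dogs COL5A1 differed by 1.23 (limma unadjusted p = 0.021, adjusted p = 0.8). In that comparison the unnamed alpha2(I) probe differed by 1.01 (interval 0.08 to 1.95, limma adjusted p = 0.8). The unnamed alpha-1(I) probe differed by 1.71 (interval −1.03 to 4.44), and none of them passed.

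Genes of proteins known to work with LARP6 in human cells had median differences from normal dogs of −0.72 in escapers and −0.43 in affected dogs. Of 6 listed, 4 had a probe and 3 were tested, and 0 passed in any comparison. DHX9, an RNA helicase that LARP6 recruits to collagen messenger RNA, had 0.26 and −1.78 in escapers 1 and 2, −0.68, −0.13, 0.07 and −0.60 in affected dogs 1 to 4, and from 0.39 to 0.62 in normal dogs. STRAP, an adaptor protein that binds LARP6, differed by −0.72 between escapers and normal dogs (limma adjusted p = 0.189) and by −0.43 between affected and normal dogs (limma adjusted p = 0.354). MYH9, a non-muscle myosin heavy chain, differed by 0.37 and 0.03 in the same comparisons. Of the other La-related proteins, 4 of 6 listed were tested and 0 passed. SSB, the founding La protein, differed by 0.07 and 0.07 from normal dogs in escapers and in affected dogs, LARP7 by −0.25 and 0.20, LARP4 by −0.41 and −0.07, and LARP1B by −0.72 and −0.45.

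Genes for the folding and modification of procollagen had mostly positive differences from normal dogs, though 0 of the 11 tested passed, of 19 listed. The median log2 difference was 0.61 for escapers and 0.31 for affected dogs, both against normal dogs, beside medians over all 6121 tested genes of 0.00464 and 0.05. A positive difference was found for 9 of 11 genes in escapers and 11 of 11 in affected dogs, beside 50.42% and 56.13% of all genes. PPIB, a prolyl isomerase of the collagen-folding complex, differed by 1.48 in escapers and 0.76 in affected dogs. P4HB, a subunit of prolyl 4-hydroxylase, differed by 0.98 and 0.53, SERPINH1, the collagen chaperone HSP47, by 1.47 and 0.70, and TMEM38B, an ion channel of the endoplasmic reticulum, by −0.44 and 0.58. SERPINH1 of affected 1 was −1.91 and that of escaper 2 was 1.72, whereas PPIB of affected 1 was 0.13, the highest of the affected dogs.

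The export machinery for procollagen had small median differences from normal dogs. Of 6 tested genes of 11 listed, 2 were positive in escapers and 3 in affected dogs, 0 passed, and the medians were −0.17 and 0.00434. SAR1B, a GTPase of the transport vesicle coat, differed by −1.56 and −0.20, CTAGE5, a cargo receptor component, by −0.35 and −0.07, and the coat proteins SEC31A and SEC13 by 0.75 and 0.56 and by −0.03 and 0.13. For cleavage and cross-linking outside the cell, 12 genes were listed, and 4 of 4 tested genes were positive in escapers and 3 of 4 in affected dogs, with medians of 1.02 and 0.43 and 0 passed. PCOLCE, which enhances removal of the procollagen C-terminal end, differed by 1.51 and 0.45, its relative PCOLCE2 by 0.89 and 0.60, ADAMTS2, which removes the N-terminal end, by 1.15 and 0.40, and the cross-linking enzyme LOXL3 by 0.18 and −0.08.

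Matrix genes that decorate or regulate fibrils were positive in 8 of 9 tested cases, of 17 listed, in escapers and 7 of 9 in affected dogs, with medians of 1.33 and 0.75 and 0 passed. COL6A1, a chain of type VI collagen, differed by 2.67 and 1.31, the small proteoglycans DCN and LUM by 2.44 and 1.19 and by 2.17 and 0.94, and the collagen-binding protein SPARC by 2.30 and 0.96. SPARC of affected 1 was −2.11, the lowest of all dogs, as for COL1A2. Of genes for collagen breakdown and its inhibitors, 4 of 15 listed were tested, 3 were positive in escapers and 4 in affected dogs, and 0 passed. The protease inhibitors TIMP1, TIMP2 and TIMP3 differed from normal dogs by 2.14, 1.20 and −0.0026 in escapers and by 1.31, 0.94 and 0.02 in affected dogs, and FAP, a protease of activated fibroblasts, by 1.84 and 0.83. TIMP2 and FAP of affected 1 stood at 1.24 and −0.66, both above all normal dogs, though at most 1 of 8 normal arrays read FAP well above background.

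Signals and regulators of collagen genes differed little on average. Of 9 tested and 17 listed, 7 were positive in escapers and 8 in affected dogs, 0 passed, and the medians were 0.30 and 0.22. CCN2, a matrix signal induced by TGF-beta, had −3.31 and −0.16 in escapers 1 and 2, 0.29, −2.46, −2.29 and −1.58 in affected dogs 1 to 4, and from −2.79 to −2.13 in normal dogs. Affected 1 was therefore the highest dog for CCN2, opposite to its place for COL1A2. TGFBR2, a TGF-beta receptor, differed by 0.92 and 0.07, and the transcription factor SP1 and coactivator CREBBP by −0.11 and 0.22 and by −0.03 and 0.06.

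The escaper medians of these lists rested largely on escaper 2, an alternative chosen after seeing the data. Without escaper 2 the median difference from normal dogs was 0.042 for folding with 7 of 11 genes positive, 0.16 for matrix genes with 6 of 9, 0.21 for cleavage and cross-linking with 3 of 4 and 0.14 for breakdown with 3 of 4. Fibrosis signals turned to −0.27 with 2 of 9 positive, secretion had −0.037 with 2 of 6, LARP6 partners −0.22 with 0 of 3 and other La-related genes −0.18 with 0 of 4. The fibrillar chains had a median of 1.72 with 5 of 5 positive. DCN and LUM show the split, with −0.28 and −0.80 in escaper 1 and 3.36 and 3.76 in escaper 2, beside normal dogs between −1.67 and −0.18. Without affected 1 the affected medians were 0.28 for folding, 0.68 for matrix genes, 0.68 for cleavage, 0.75 for breakdown, 0.056 for fibrosis signals, −0.10 for secretion, −0.47 for LARP6 partners, −0.16 for other La-related genes and 2.40 for fibrillar chains.

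**Figure D4:**
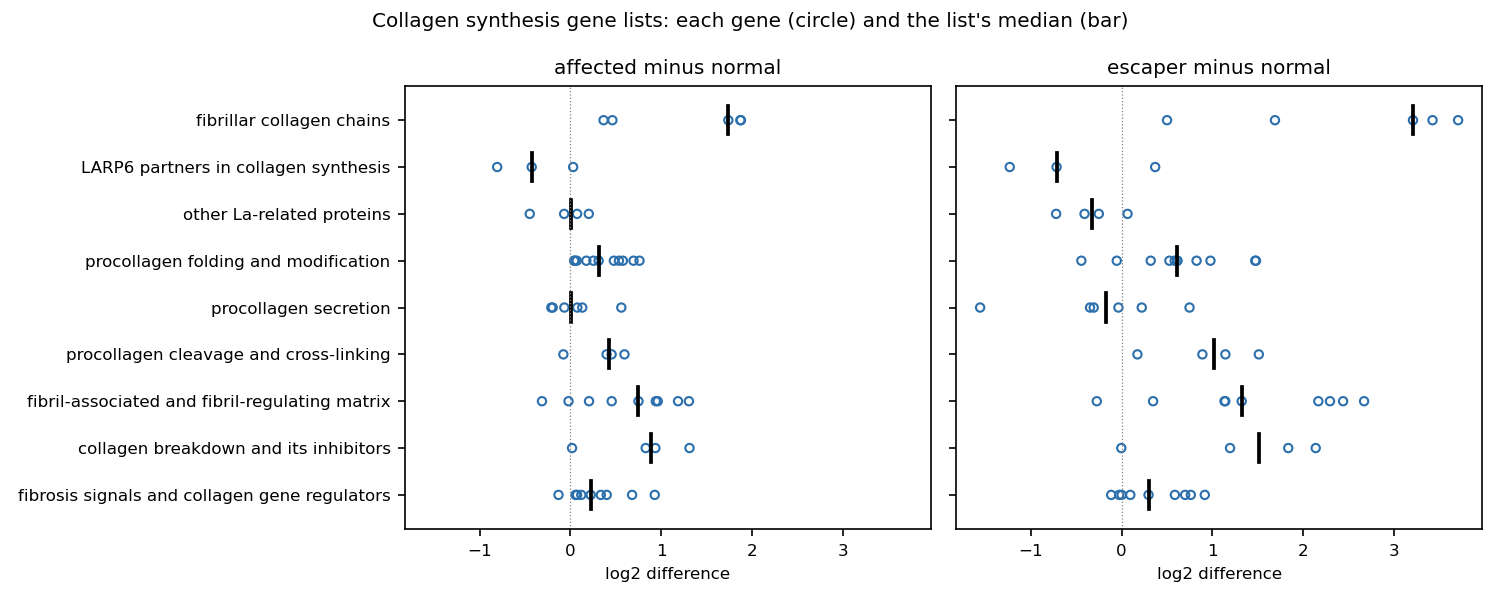
Log2 difference from normal dogs of each tested gene (circles) and the median (black bars) of 9 gene lists around collagen synthesis, with affected dogs in the left panel and escapers in the right. Of the 5 fibrillar chains, 4 were chosen for their difference, so their medians of 1.74 in affected dogs and 3.21 in escapers are descriptions, and COL5A1 alone stood at 0.46 and 1.69. LARP6 partners have medians of −0.43 and −0.72.

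Markers of some other cell types followed the collagens in some dogs and not in others, and their part in the result was not tested. Of 10 fibroblast markers, 9 were tested, and their mean log2 ratio was −0.26 and 2.12 in escapers 1 and 2, −0.74, −0.30, 0.45 and 0.96 in affected dogs 1 to 4, and from −0.73 to −0.28 in normal dogs. Escaper 2 was the highest dog and affected 1 the lowest, though hardly below normal 4 at −0.73. All 9 are named here after their values were seen. Affected 1 lay above all normal dogs for FAP and PDGFRA and among them for DCN. Of 8 normal arrays, at most 1 read FAP well above background and 0 read PDGFRA so, and the normal levels of both are loosely measured. It lay below all of them for LUM, FBLN1, MFAP5, CD34, DPT and THY1. In escaper 1 the fibrillar chains averaged 0.28, beside −1.58 to −1.05 in normal dogs, while its fibroblast mean was close to −0.28 in normal 3. DCN and LUM, the brightest of the list, are also matrix genes of a list above. The 5 tested macrophage and myeloid markers of 10 listed had means of −1.02 and 1.30 in escapers, from −1.28 to 0.22 in affected dogs and from −1.57 to −1.18 in normal dogs, with LGALS3 and TYROBP brightest. Tendon and fascia markers, 3 tested of 7, ranged from −0.22 to 2.02 in escapers, from −0.37 to 2.99 in affected dogs and from −0.43 to 0.71 in normal dogs. THBS4 and COMP were brightest, with COMP at 3.09 in affected 4 and 2.27 in normal 3. TNMD, the remaining tested marker, is named after its values were seen. It had 0.50 and 4.07 in escapers 1 and 2, and −0.02, 0.32, 1.51 and 6.06 in affected dogs 1 to 4. In normal dogs it lay from −0.15 to 0.40, and at most 9 arrays read it well above background.

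Markers of the remaining cell types differed less between groups or were too few. The means of 5 of 7 endothelial markers, with VWF and PECAM1 brightest, were −0.25 to 0.999 in escapers, −0.53 to −0.03 in affected dogs and −0.10 to 0.18 in normal dogs. Those of 4 of 7 smooth muscle and pericyte markers, led by CSPG4 and TAGLN, stayed between −0.19 and 0.16 in all dogs, and those of 5 of 6 adipocyte markers, led by FABP4 and LEP, between −0.03 and 0.47. Lymphoid and Schwann cell lists had 1 tested gene each, NKG7 of 9 and PMP22 of 5, and the lymphocyte markers CD8A, MS4A1 and CD79A were well above background on 0 arrays.

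The 4 genes whose level followed each member most closely over the 10 dogs were found by Pearson's r of the brightest probe among 6116 other tested genes. COL1A2 and COL3A1 had 3 of them in common, and no other pair of members had any. For LARP6 they were LGALS3 (r = 0.94), IL17RA (0.94), GPR177 (0.93) and SCYL3 (0.93). LGALS3, the macrophage-associated lectin galectin-3, had −2.35 and 0.22 in escapers, −0.90, −1.55, −1.50 and −0.60 in affected dogs 1 to 4, and from −4.03 to −3.30 in normal dogs, so affected 1 kept the level of its group as it did for LARP6. For COL1A2 they were THBS3 (0.98), GPX8 (0.97), IGFBP6 (0.97) and IL17B (0.97), and for COL3A1 IL17B (0.99), GPX8 (0.97), LILRB3 (0.97) and THBS3 (0.96). For COL5A2 they were RGS10 (0.98), AMICA1 (0.98), CHRNG (0.98) and EFEMP2 (0.98), and for COL1A1 SMOC2 (0.98), ANGPTL2 (0.97), MFAP5 (0.97) and CPA3 (0.97). The COL1A1 probe was well above background only in escaper 2 and affected 4, so its values of r use unread levels in all other dogs. With 10 dogs and so many candidates these values are descriptions of shared arrays.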

How the data were processed

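Per the file headers, the authors read spot intensity in both dye channels with Agilent Feature Extraction, version 9.5.3.1. Values in the authors' deposited table are log2 ratios that equalled those of the processed intensities, dog over reference (r = 1 on every array), with swapped arrays already turned and columns left uncentred, medians from −0.16 to 0.25. Why they were left so is not given in the sources used here, and the table was an alternative only. Mean signals were corrected with normexp (offset 50) and loess (span 0.3, controls at weight 0) in limma 3.58.1 (R 4.3.3). Ratios were turned to dog over reference, outlier-flagged spots were left out, and the 2 arrays of a dog were averaged. Probes were tested if 2 or more dogs had both arrays well above background, true of 16130 of 42034, and if unflagged in every dog, leaving 16008.

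One limma fit over 10 dogs and 3 groups gave differences with standard errors and Benjamini-Hochberg adjusted p, threshold 0.05. The fit was tested on simulated data. Each gene was represented by its brightest tested probe. Symbols came from the array files, updated through the gene table of assembly UU_Cfam_GSD_1.0, for 12147 probes. Arrays had 30.5% to 60.2% of probes well above background, and the number of dogs in a group, 2 or 4, limits the precision.

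Members, gene lists and the naming rule were chosen with earlier results of these data known. Named are all members, all tested fibrillar chains and LARP6 partners, the 4 brightest genes of other lists, the 2 brightest markers of a cell type and the 4 genes most like each member. Other genes were named after their values were seen where the text says so or as markers on 0 arrays.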

Additional observations from a re-analysis of the deposited data

Results flagged for a closer look

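COL5A2 at its brighter probe stood apart in normal 4, at −2.86, where the other normal dogs lay between −2.08 and −1.99. Its gap to the next dog was 0.89 of the group's range. Chance sets 1 dog apart in this way in about 5% of groups of this size. Gaps were taken in normal and in affected dogs at all 7 member probes, so a flag among so many groups can arise by chance. The intron-spanning COL5A2 probe also had its lowest value in normal 4, at −1.77, with a gap of 0.766 of the range. It reads the same gene on the same arrays and is no separate support.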

How the results depend on the processing

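The difference of affected and normal dogs chose the genes, so its sign is no sign of stability, and alternatives that change only the error or leave out an escaper cannot move it. Over 21 to 23 alternatives LARP6 ranged from 1.65 to 2.43, COL1A2 from 0.79 to 2.66, COL3A1 from 1.07 to 2.89, COL5A2 from 1.40 to 2.40 and COL1A1 from 0.20 to 2.63. With the scanner's processed signals LARP6 was 2.38 and COL1A1 0.66, and with the values deposited by the authors 2.43 and 0.71. The added alternative, chosen after seeing the data, of the unnamed probe described as collagen alpha-1(I) gave 2.63 for COL1A1. The cause of these shifts was not tested. COL1A1 and COL3A1 drop out where a probe must be well above background on all 20 arrays.

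Between escapers and normal dogs the differences ranged from 0.95 to 2.39 for LARP6, 1.799 to 4.62 for COL1A2, 2.48 to 5.62 for COL3A1, 1.72 to 4.70 for COL5A2 and 0.012 to 4.34 for COL1A1, which was at 1.29 with processed signals and 4.34 with the unnamed probe. LARP6 passed under 3 of 23 alternatives. These were the slide as a random block (1.67, limma adjusted p = 0.036), 20 arrays with the dog as a random block (1.67, 0.00612) and the fit without escaper 1. With the dog as a random block COL1A2 (3.43, 0.0139), COL5A2 (3.21, 0.00967) and COL3A1 (3.71, 0.0177) passed too. That fit sets a single correlation of 0.542 between the arrays of a dog for all probes. Over the dogs, group differences included, the 2 dye orientations of these 4 probes correlated at r from 0.93 to 0.9979. With 1 value for each dog all 4 calls were lost (0.179 to 0.202). Without escaper 1, the lone escaper 2 gave differences of 4.62 for COL1A2, 4.95 for COL3A1, 4.70 for COL5A2 and 0.99 for COL1A1. COL1A1 was not read above background in normal dogs. The estimated correlation within slides was −0.271 and within dogs 0.542, so the slide fit takes dogs of 1 slide as less alike than others. Adjusted p ranged over alternatives from 0.00119 to 0.687 for LARP6, 0.0139 to 1 for COL1A2, 0.0177 to 1 for COL3A1, 0.00662 to 1 for COL5A2 and 0.019 to 1 for COL1A1.

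Leaving out 1 dog at a time, affected minus normal ranged from 1.73 to 1.92 for LARP6, 1.14 to 2.66 for COL1A2, 1.07 to 2.86 for COL3A1, 1.40 to 2.40 for COL5A2 and 0.26 to 0.45 for COL1A1. Escaper minus normal ranged from 0.95 to 2.39, 2.24 to 4.62, 2.48 to 4.95, 1.72 to 4.70 and 0.012 to 0.99 in the same order of genes, where COL1A1 values are measured differences from a group not above background. Escaper minus affected ranged from −0.88 to 0.56, 0.50 to 2.88, 0.60 to 3.07, −0.15 to 2.83 and −0.35 to 0.63. Every one of these ends but those of affected minus normal came from leaving out an escaper. Escaper minus affected turned to 0.56 for LARP6 without escaper 1, to −0.35 for COL1A1 and −0.15 for COL5A2 without escaper 2, and to −0.093 for COL1A1 with the dog in Cy5 only, none of which passed.

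The probes that passed numbered 3 for affected minus normal and 0 for both escaper comparisons. For affected minus normal they were 29 with processed signals, 31 with the deposited values, 113 with 2 groups only, 114 with the slide block, 362 with the dog block, 7 with the dog in Cy5 and 1 with the dog in Cy3. For escaper minus normal they were 4, 4, 522 and 1067 with processed signals, the deposited values, the slide block and the dog block, and 1 with no filter. Leaving out 1 dog gave 0 to 113 for affected minus normal, 0 to 3920 for escaper minus normal and 0 to 1755 for escaper minus affected. The highest counts came without escaper 1, and 113 also came without escaper 2.

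No paired analysis was possible because the labels carry no replicate numbers that link dogs of different groups. COL1A1 and COL3A1 are limited by signal near background, and 2 escapers on 1 slide limit every escaper comparison.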
